A study of Mus musculus with 6 samples.

Results

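The genes described here are 42 genes of the endoplasmic reticulum (ER) that fold newly made secretory proteins, sense a folding overload or send misfolded proteins to degradation, out of 55487 genes in the deposited table. They were chosen by name for these roles, with earlier results of these data known. Of the 42, 40 were found under their own symbol and 2, Ero1a and Ero1b, under the older symbols Ero1l and Ero1lb. They were divided by known role into 15 chaperones, 10 genes of oxidative folding, 6 sensors and 11 degradation genes. Their RNA was compared between 3 libraries of marginal zone (MZ) B cells from CD55KO mice and 3 from wild-type (WT) C57BL/6 mice, all 14 weeks old. B cells were enriched by negative selection and MZ B cells then isolated by flow sorting. CD55, or decay-accelerating factor, sits on the cell surface and shields the cell from complement. The labels give neither the strain background nor the deleted part of the CD55KO allele, and do not say if each library is a separate mouse, so the p-values here speak for the spread among these 6 libraries, part or all of which may be technical.

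Proteins that enter the ER are bound by chaperones such as BiP and GRP94, given disulfide bonds by protein disulfide isomerases, and glycosylated and checked by the calnexin and calreticulin cycle. When unfolded proteins accumulate, the membrane sensors IRE1, ATF6 and PERK set off the unfolded protein response, in which the transcription factors XBP1 and ATF6 raise the genes for folding and for ER-associated degradation. Degradation moves misfolded proteins back to the cytosol through a ubiquitin ligase complex built around HRD1 and SEL1L. In the B lineage this machinery expands when a cell turns into an antibody-secreting plasma cell, and MZ B cells make that change quickly after stimulation.

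Libraries held 20056064 to 30784031 estimated counts. Cd55, the targeted gene, had 244, 154 and 212 counts in the CD55KO libraries (replicates 1 to 3) against 2580, 3715 and 3096 counts in the WT libraries, which fits the labels. Cr2, which encodes a complement receptor abundant on MZ B cells, ranged from 1033 to 1171 CPM (depth-scaled counts, with edgeR's TMM scaling) in CD55KO and from 1032 to 1117 CPM in WT. WT replicate 1 lay at one end of the first principal component, which held 28.8% of the variance, and CD55KO replicate 3 at the other. Erythroid RNA varied widely between libraries of both genotypes, as 7 erythroid transcripts summed to 2002, 1602 and 36.2 CPM in CD55KO replicates 1 to 3 and to 4388, 359 and 106 CPM in WT replicates 1 to 3.

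A group of 8 folding genes fell in CD55KO MZ B cells, while no sensor or degradation gene passed the test. All 42 members passed the filter on low counts. By edgeR's quasi-likelihood test across 13794 genes, with a threshold on the adjusted p of 0.05, 8 members fell, none rose and 34 did not pass. The same test called 0.261% of all tested genes lower and 0.138% higher. Because the members were chosen with earlier results of these data known, these shares describe the group and do not test it. The 8 genes were Sdf2l1, Hsp90b1, Manf, Dnajb11 and Calr among 15 chaperones, and Creld2, Pdia6 and Pdia3 among 10 genes of oxidative folding. None of the 6 sensors and none of the 11 degradation genes passed by edgeR, DESeq2 or limma-voom, and 1 gene in each of these branches had an unadjusted p under 0.05. Whether the branches differ from each other was not tested. The median log2 fold change (CD55KO over WT) was -0.25 over the chaperones, -0.22 over oxidative folding, -0.04 over the sensors and -0.07 over degradation, beside 0.0015 over all genes tested. Negative values were found for 35 of the 42 members and for 49.6% of all tested genes. By branch they were found for 14 of 15 chaperones, 7 of 10 genes of oxidative folding, 5 of 6 sensors and 9 of 11 degradation genes. An unadjusted p under 0.05 was found for 18 members (15 lower and 3 higher), beside 8.6% of all tested genes, 4.3% in each direction. Without any overlap between libraries of the 2 genotypes, 16 members were lower in CD55KO and 2 higher, beside 6.84% and 7.24% of all tested genes. The degradation genes summed to 1343 to 1379 CPM in CD55KO and 1417 to 1463 CPM in WT, without overlap. The sensors summed to 212 to 232 CPM in CD55KO and 227 to 237 CPM in WT, with overlap.

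**Figure D1:**
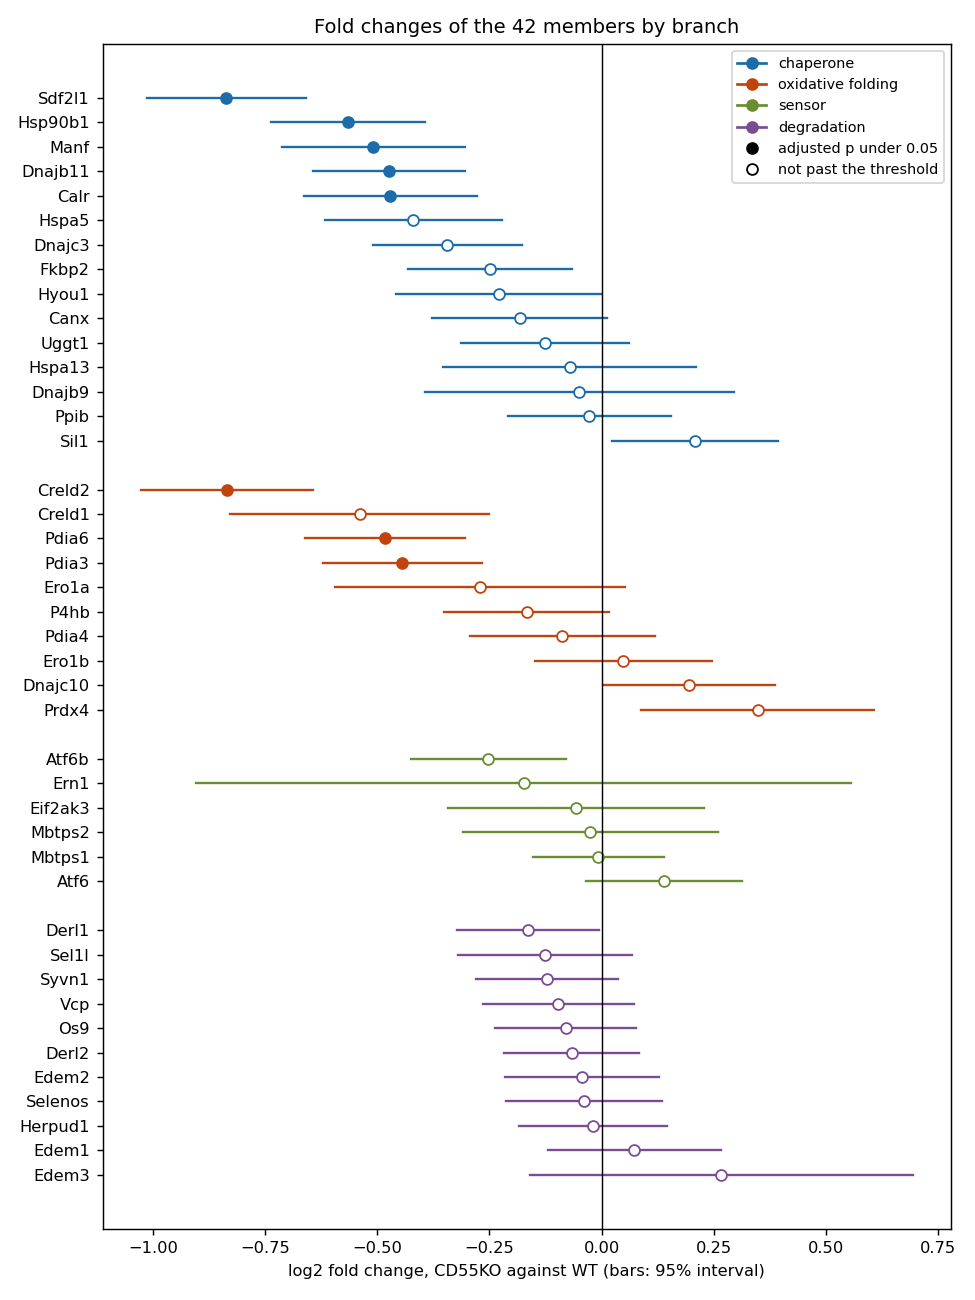
Log2 fold change of CD55KO against WT (horizontal axis) for the 42 members, grouped by branch, with 95% intervals as bars. Filled points passed an adjusted p of 0.05: 5 chaperones and 3 genes of oxidative folding lie between -0.84 and -0.44, while the degradation genes lie between -0.16 and 0.27.

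Among the chaperones, Sdf2l1 showed the largest fall. It encodes a small ER protein that works with BiP and its J-domain partners and is induced when proteins misfold. Sdf2l1 had 39.3, 39.9 and 42.7 CPM in CD55KO replicates 1 to 3 and 72.4, 66.7 and 78.8 CPM in WT replicates 1 to 3. Every CD55KO library lay well under every WT library. CD55KO cells held 56.0% of the WT level (95% interval 49.5 to 63.3%, log2 fold change -0.84, SE 0.08, adjusted p = 4.5e-05 by edgeR). For 8 of the 15 chaperones all CD55KO libraries lay under all WT libraries, some by a small margin, beside 6.84% of all tested genes.

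Hsp90b1 encodes GRP94, the HSP90 chaperone of the ER lumen, which folds integrins and Toll-like receptors. Its level was 356, 331 and 350 CPM in CD55KO replicates 1 to 3 and 512, 489 and 532 CPM in WT replicates 1 to 3, again without overlap. CD55KO had 67.6% of the WT level (log2 fold change -0.57, SE 0.08, adjusted p = 0.0023 by edgeR). The deposited counts of Hsp90b1 were not whole in any library. A pseudogene on the opposite strand, 1810014B01Rik, overlaps its exons by 415 bases and had 1.67% as many counts.

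Dnajb11, Manf and Calr fell by similar amounts. Dnajb11, a J-domain partner of BiP that binds unfolded chains, had 56.6, 57.1 and 66.5 CPM in CD55KO libraries and 84.0, 80.6 and 85.8 CPM in WT libraries (log2 fold change -0.47, SE 0.08, adjusted p = 0.0092 by edgeR). Manf, a secreted and ER-resident stress protein that binds BiP, had 81.2, 99.9 and 103 CPM in CD55KO libraries and 142, 119 and 143 CPM in WT libraries. The highest CD55KO and the lowest WT library were closer in ratio for Manf than for Dnajb11, and its log2 fold change was -0.51 ± 0.10 SE (adjusted p = 0.026 by edgeR). Calr encodes calreticulin, the soluble lectin chaperone that holds newly made glycoproteins. It had 262, 264 and 313 CPM in CD55KO libraries and 386, 367 and 409 CPM in WT libraries (log2 fold change -0.47, SE 0.09, adjusted p = 0.026 by edgeR). CD55KO replicate 3 was the highest CD55KO library for all 3 genes, and still lay under each WT library. Manf shares exon bases with Dcaf1 on the opposite strand, which had 16.2% as many counts as Manf, and its values are uncertain because the SMARTer kit leaves strand unmarked. It also shares 14 exon bases with Rbm15b on the same strand, which had 6.24% as many counts.

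**Figure D2:**
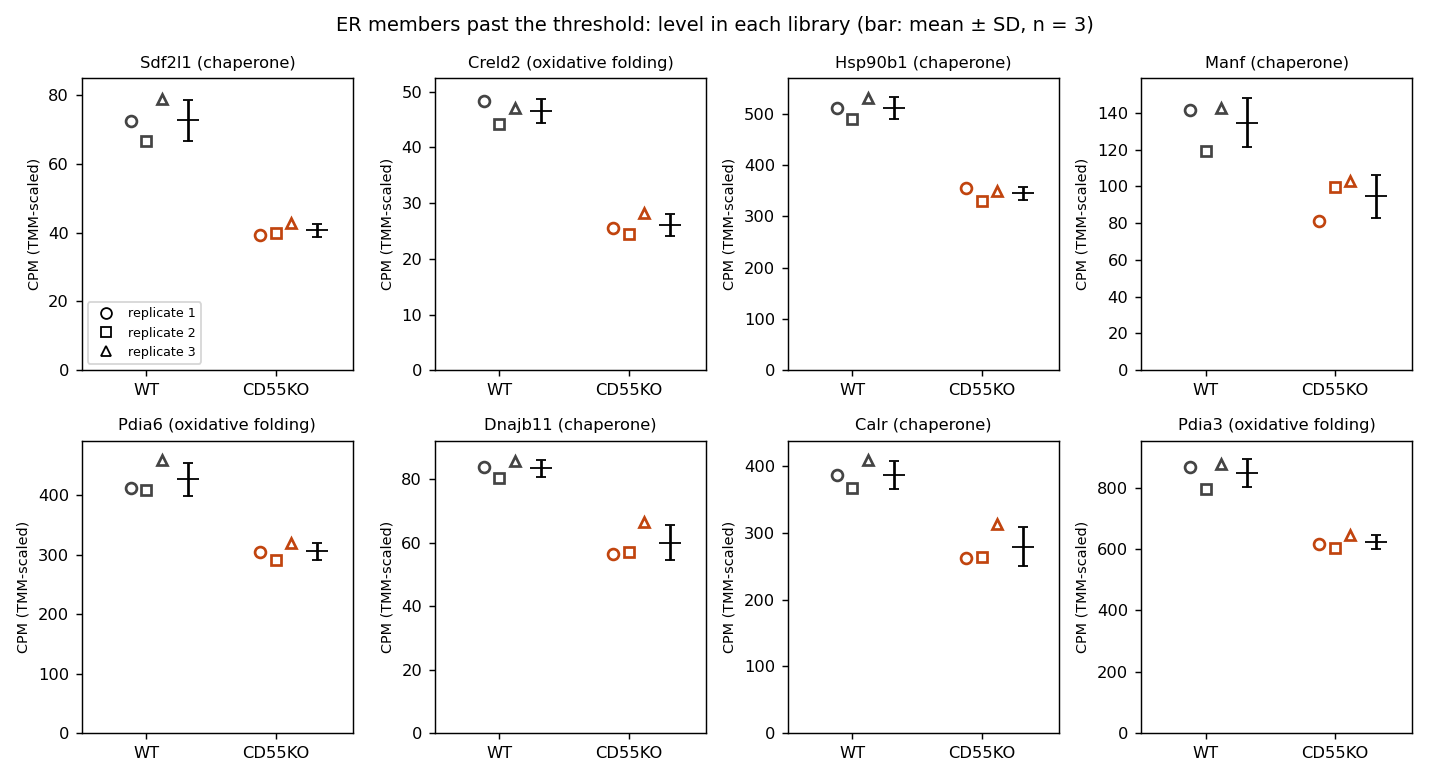
TMM-scaled CPM (vertical axis, from 0) in each WT and CD55KO library for the 8 genes past the threshold, with symbols for the replicate number and bars for the mean ± SD of 3 libraries. In each panel the 3 CD55KO libraries lie under the 3 WT libraries.

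Hspa5 encodes BiP, the HSP70 chaperone of the ER and the protein that holds the stress sensors inactive. It had 979, 1093 and 1201 CPM in CD55KO replicates 1 to 3 and 1454, 1382 and 1542 CPM in WT replicates 1 to 3. The libraries did not overlap and CD55KO had 74.7% of the WT level (95% interval 65.2 to 85.7%), but the gene did not pass over all genes by edgeR (adjusted p = 0.080). Dnajc3, a BiP partner that also restrains the kinase PERK, had 63.8, 63.9 and 66.1 CPM in CD55KO libraries and 90.1, 80.7 and 75.4 CPM in WT libraries (log2 fold change -0.34, SE 0.08, adjusted p = 0.090 by edgeR). Both were called lower by DESeq2 and by edgeR without a count filter. Hspa5 was also called lower by edgeR with library totals as the only scaling and with the replicate number as a block.

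The other chaperones did not pass by edgeR, DESeq2 or limma-voom. Fkbp2, a prolyl isomerase, had 36.4 ± 0.75 CPM in CD55KO libraries and 43.3 ± 3.06 CPM in WT libraries (SD, n = 3), with libraries that did not overlap. Canx, the membrane lectin calnexin, had 273 ± 26.3 and 310 ± 24.4 CPM, with libraries that overlapped, unlike those of its soluble relative Calr. Ppib, the abundant prolyl isomerase cyclophilin B, had 205 ± 20.1 and 209 ± 11.1 CPM, and Dnajb9, a J-domain protein that binds IRE1, had 17.8 ± 4.59 and 18.4 ± 2.03 CPM. Hyou1, a large chaperone related to HSP70, Uggt1, the folding sensor of the glycoprotein cycle, and Hspa13 had log2 fold changes of -0.23, -0.13 and -0.07. The 1 chaperone gene with a positive value was Sil1, which encodes a nucleotide exchange factor of BiP. Sil1 had 34.4, 33.0 and 35.3 CPM in CD55KO libraries and 29.7, 28.3 and 30.98 CPM in WT libraries, libraries that did not overlap (log2 fold change 0.21, SE 0.09, adjusted p = 0.51 by edgeR).

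In oxidative folding, Creld2 fell to the same degree as Sdf2l1. It encodes a secreted and ER-resident protein with disulfide isomerase activity that is induced by ER stress. Creld2 had 25.6, 24.4 and 28.3 CPM in CD55KO replicates 1 to 3 and 48.4, 44.3 and 47.1 CPM in WT replicates 1 to 3. The libraries lay far apart, and CD55KO had 56.0% of the WT level (95% interval 49.1 to 64.0%, log2 fold change -0.84, SE 0.09, adjusted p = 9.2e-05 by edgeR). Its membrane-anchored paralogue Creld1 had 11.5, 9.14 and 8.90 CPM in CD55KO libraries and 14.6, 14.6 and 13.7 CPM in WT libraries. The libraries of Creld1 did not overlap either, but its log2 fold change of -0.54 ± 0.14 SE did not pass (adjusted p = 0.14 by edgeR). DESeq2 and edgeR without a count filter called Creld1 lower.

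Of the disulfide isomerases, Pdia6 and Pdia3 fell, and Pdia4 and P4hb did not pass. Pdia6 had 305, 291 and 320 CPM in CD55KO libraries and 413, 409 and 459 CPM in WT libraries (log2 fold change -0.48, SE 0.08, adjusted p = 0.012 by edgeR). Pdia3, the isomerase that works with calnexin and calreticulin and also sits in the MHC class I loading complex, had 616, 604 and 646 CPM in CD55KO libraries and 867, 794 and 877 CPM in WT libraries (log2 fold change -0.44, SE 0.08, adjusted p = 0.025 by edgeR). Both genes had CD55KO libraries under all WT libraries. Pdia4, the most abundant member per exon length, had 1115, 1257 and 1416 CPM in CD55KO libraries and 1275, 1324 and 1425 CPM in WT libraries. Its libraries overlapped, and its log2 fold change of -0.09 had a 95% interval of -0.29 to 0.12, so that a fall of the size seen for Pdia6 lay outside it. P4hb, the classical isomerase PDI, had 236 ± 24.8 CPM in CD55KO libraries and 264 ± 7.33 CPM in WT libraries (log2 fold change -0.17, SE 0.09, adjusted p = 0.63 by edgeR).

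The enzymes that supply oxidising power did not pass. Ero1b and Ero1a, the oxidases that recharge PDI, had log2 fold changes of 0.05 and -0.27 (adjusted p = 0.94 and 0.68 by edgeR). Prdx4, a peroxiredoxin of the ER that uses hydrogen peroxide to form disulfides, had the highest positive value of the 42 members. It had 20.1, 21.0 and 24.4 CPM in CD55KO libraries and 20.1, 15.6 and 15.9 CPM in WT libraries. WT replicate 1 lay within the CD55KO range, and Prdx4 did not pass (log2 fold change 0.35, SE 0.12, adjusted p = 0.38 by edgeR). Dnajc10, a J-domain protein that reduces disulfides before degradation, had 48.4 ± 4.90 CPM in CD55KO libraries and 42.3 ± 1.47 CPM in WT libraries, with overlapping libraries.

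Promoters of some of these genes are known to carry the ER stress response element (ERSE), the letters CCAAT and CCACG with 9 bases of any kind between them. This element binds NF-Y at one end and ATF6 or XBP1 at the other. RefSeq windows of GRCm38, from 250 bases before to 50 after the start of transcription, were searched on both strands. They were found for 36 of the 42 members and for 7 of the 8 that fell, all but Manf. An ERSE lay in the windows of 9 of the 36 members (25.0%) and of 37 of 27025 genes in all (0.137%). The 9 were Calr, Canx, Creld2, Dnajc3, Ero1b, Hsp90b1, Hspa5, Pdia6 and Syvn1, of which 4 fell and 5 did not pass. Their median log2 fold change was -0.42, against -0.08 for the matched members without one, and 14 of these 27 are sensor or degradation genes. Within the chaperones the medians were -0.42 for 5 genes with an ERSE (2 fell) and -0.19 for 6 without (2 fell). Within oxidative folding they were -0.48 for 3 genes (2 fell) and -0.17 for 7 (1 fell). The related ERSE-II, ATTGG and CCACG with 1 base between them, lay in the windows of Dnajb11 and Herpud1 and of 12 genes in all (0.0444%). Dnajb11, which fell, and Herpud1 are counted above among the members without an ERSE. The letters of the XBP1 element TGACGTGG lay in the window of Vcp alone among the members and in 0.714% of all genes. CCACG, the end shared by ERSE and ERSE-II, lay in 29 of 36 members' windows and in 35.5% of all genes. A match is a description of the letters and no measure of binding, and a window without one says nothing of the factors.

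The 250 bases before the start are shown 5′ to 3′ for the 3 genes with the largest falls and for Hspa5, the textbook target of this element, with ERSE matches in capitals on either strand. They lie at chr16:17132384-17132633 (minus strand, Sdf2l1), chr15:88819396-88819645 (plus strand, Creld2), chr10:86705445-86705694 (minus strand, Hsp90b1) and chr2:34771840-34772089 (plus strand, Hspa5) of GRCm38.
Sdf2l1: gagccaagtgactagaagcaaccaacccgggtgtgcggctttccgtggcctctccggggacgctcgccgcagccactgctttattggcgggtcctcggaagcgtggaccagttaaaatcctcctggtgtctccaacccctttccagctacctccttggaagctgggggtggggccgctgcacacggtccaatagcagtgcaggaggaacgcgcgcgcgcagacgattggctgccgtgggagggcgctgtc
Creld2: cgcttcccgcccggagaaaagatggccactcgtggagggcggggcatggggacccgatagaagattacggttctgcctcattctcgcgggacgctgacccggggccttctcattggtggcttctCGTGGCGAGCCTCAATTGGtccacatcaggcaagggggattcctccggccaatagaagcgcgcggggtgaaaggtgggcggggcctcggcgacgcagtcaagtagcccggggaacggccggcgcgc
Hsp90b1: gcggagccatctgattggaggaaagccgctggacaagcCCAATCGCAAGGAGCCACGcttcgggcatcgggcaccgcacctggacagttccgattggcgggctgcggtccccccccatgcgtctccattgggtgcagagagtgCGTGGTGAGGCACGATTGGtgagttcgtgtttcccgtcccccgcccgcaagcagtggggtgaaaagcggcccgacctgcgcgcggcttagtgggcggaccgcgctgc
Hspa5: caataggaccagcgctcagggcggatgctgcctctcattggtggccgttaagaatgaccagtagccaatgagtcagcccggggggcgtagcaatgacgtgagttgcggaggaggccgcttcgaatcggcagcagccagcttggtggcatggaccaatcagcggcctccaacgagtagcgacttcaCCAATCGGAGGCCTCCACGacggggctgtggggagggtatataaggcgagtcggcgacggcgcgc
Hsp90b1 held 2 matches, 1 on each strand, Creld2 and Hspa5 held 1 each, and Sdf2l1, which fell as far as Creld2, held no exact match. The members with the largest falls included both a promoter with the element and one without its exact letters, and Ero1b and Syvn1 carried it with log2 fold changes of 0.05 and -0.12.

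None of the sensors passed the test. Ern1, which encodes IRE1, had 24, 43 and 38 counts in CD55KO replicates 1 to 3 and 31, 52 and 36 counts in WT replicates 1 to 3. At these low counts its 95% interval was wide, from -0.90 to 0.56 on the log2 scale. Atf6, a membrane-bound transcription factor released by cleavage, had 43.6, 44.7 and 45.005 CPM in CD55KO libraries and 40.9, 41.8 and 38.3 CPM in WT libraries. Its CD55KO libraries were all slightly above WT, and it did not pass (log2 fold change 0.14, SE 0.08, adjusted p = 0.70 by edgeR). Its relative Atf6b went the other way, with 60.2, 60.8 and 66.9 CPM in CD55KO libraries and 69.7, 72.3 and 81.9 CPM in WT libraries, also without overlap (log2 fold change -0.25, SE 0.08, adjusted p = 0.31 by edgeR).

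Eif2ak3, which encodes the kinase PERK, had 12.9 ± 1.93 CPM in CD55KO libraries and 13.5 ± 0.56 CPM in WT libraries. Mbtps1 and Mbtps2 encode the Golgi proteases that cut ATF6 after it leaves the ER. Mbtps1 had 90.8 ± 3.78 and 91.2 ± 0.59 CPM, with a 95% interval of -0.15 to 0.14 on the log2 scale, and Mbtps2 had 10.7 ± 0.55 and 10.9 ± 0.98 CPM. Mbtps2 shares 2867 exon bases with Yy2 on the same strand, so reads from the pair cannot be fully told apart.

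None of the degradation genes passed, and the 95% intervals of all but Edem3 lay within 1.5-fold in both directions. Herpud1, a membrane component of the HRD1 complex and a strong target of the unfolded protein response, had 224, 224 and 221 CPM in CD55KO libraries and 212, 223 and 243 CPM in WT libraries. The CD55KO values lay inside the WT range, with a 95% interval of -0.19 to 0.15 on the log2 scale. Selenos, a selenoprotein that recruits the ATPase p97 to the membrane and the most abundant degradation gene per exon length, had 152, 151 and 162 CPM in CD55KO libraries and 160, 143 and 175 CPM in WT libraries. These libraries overlapped (log2 fold change -0.04, SE 0.08, adjusted p = 0.95 by edgeR).

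Derl1, a channel protein of the degradation complex, had the smallest p of the branch, with 97.0, 87.6 and 99.8 CPM in CD55KO libraries and 112, 105 and 102 CPM in WT libraries. All CD55KO libraries were below all WT libraries by a small margin (log2 fold change -0.16, SE 0.07, adjusted p = 0.56 by edgeR). Syvn1, the ubiquitin ligase HRD1, had 172, 157 and 170 CPM in CD55KO libraries and 175, 190 and 178 CPM in WT libraries (log2 fold change -0.12, SE 0.07, adjusted p = 0.72 by edgeR). Its exons overlap those of Mrpl49 on the opposite strand, which had 23.5% as many counts. Sel1l, the partner of HRD1, had 47.2, 41.7 and 52.4 CPM in CD55KO libraries and 53.0, 52.0 and 49.2 CPM in WT libraries, with overlap. Vcp, which encodes p97, had 324 ± 1.52 and 346 ± 16.5 CPM without overlap (log2 fold change -0.10, SE 0.08). Os9, a lectin that selects glycoproteins for disposal, and Derl2 had log2 fold changes of -0.08 and -0.07. The exons of Derl2 overlap those of Mis12 on the opposite strand, which had 31.2% as many counts. With strand unmarked, the values of Syvn1 and Derl2 are uncertain like those of Manf. Edem1, Edem2 and Edem3, which trim the mannose of misfolded glycoproteins, had 0.07, -0.04 and 0.27, the last at 5.005 ± 0.46 CPM in CD55KO libraries and 4.15 ± 0.67 CPM in WT libraries.

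For 28 of the 34 members that did not pass, the 95% interval of the fold change lay within 1.5-fold in both directions. The other 6 were Hspa5, Creld1, Ero1a, Prdx4, Ern1 and Edem3, whose intervals reached past 1.5-fold. The 8 genes that fell had log2 fold changes from -0.84 to -0.44, and 14 of the 22 members at or above their lowest WT level (25.8 CPM per kb of exon) did not pass. Levels per exon length ranged from 0.181 CPM per kb for Ern1 to 559 CPM per kb for Pdia4 in WT. The members at or above 25.8 CPM per kb had at least 603 counts in every library.

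**Figure D3:**
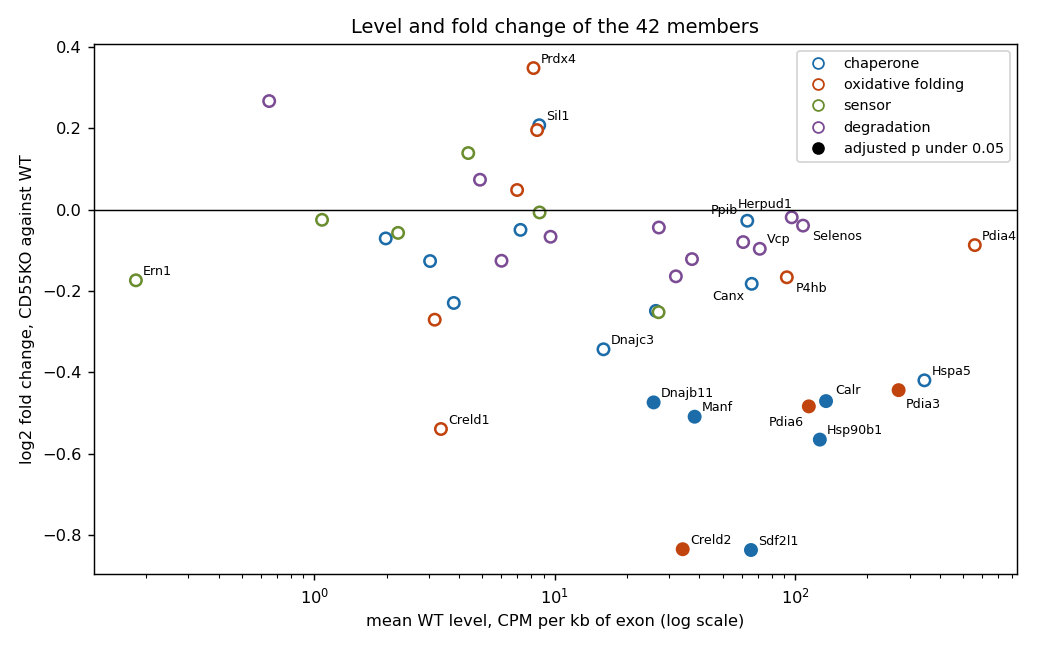
Mean WT level in CPM per kb of exon (horizontal axis, log scale) against the log2 fold change (CD55KO over WT, vertical axis) for the 42 members, coloured by branch. The 8 filled points passed an adjusted p of 0.05 and lie at or above 25.8 CPM per kb, where 14 other members, among them Pdia4 at 559 CPM per kb, did not pass.

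Of the other genes of the pathway, 68 of 74 were tested and 1 fell, none rose and 67 did not pass (median log2 fold change -0.03), with 1 call also by DESeq2 and by limma-voom. The gene that fell was Xbp1, which encodes the transcription factor activated by IRE1, with 71.6, 79.99 and 83.8 CPM in CD55KO libraries and 129, 124 and 102 CPM in WT libraries. All CD55KO libraries lay under all WT libraries (log2 fold change -0.59, SE 0.09, adjusted p = 0.0047 by edgeR). The table counts reads per gene, so spliced and unspliced Xbp1 RNA were not told apart. Trib3, a target of the PERK branch, had 0.660 ± 0.23 CPM in CD55KO libraries and 1.42 ± 0.32 CPM in WT libraries, without overlap. Its values rest on 11 to 44 counts in each library (log2 fold change -1.09, SE 0.40, adjusted p = 0.40 by edgeR). Atf4, the main transcription factor of that branch, and Ddit3, which encodes CHOP, had log2 fold changes of 0.09 and -0.11 and were named after their values were seen. Creb3l2, a membrane-bound transcription factor related to ATF6, had -0.34 (adjusted p = 0.72 by edgeR). None of 31 tested folding factors outside the 42 passed, with 0 at an unadjusted p under 0.05, and their median was -0.03. The smallest p among them belonged to Txndc5, a disulfide isomerase (0.18, adjusted p = 0.75), and Cnpy3, a cofactor of GRP94 (-0.10, adjusted p = 0.81). None of 23 further degradation factors passed, with 2 at an unadjusted p under 0.05, the ubiquitin ligase gene Rnf5 and the p97 cofactor gene Ubxn4, at log2 fold changes of -0.20 and -0.16.

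**Figure D4:**
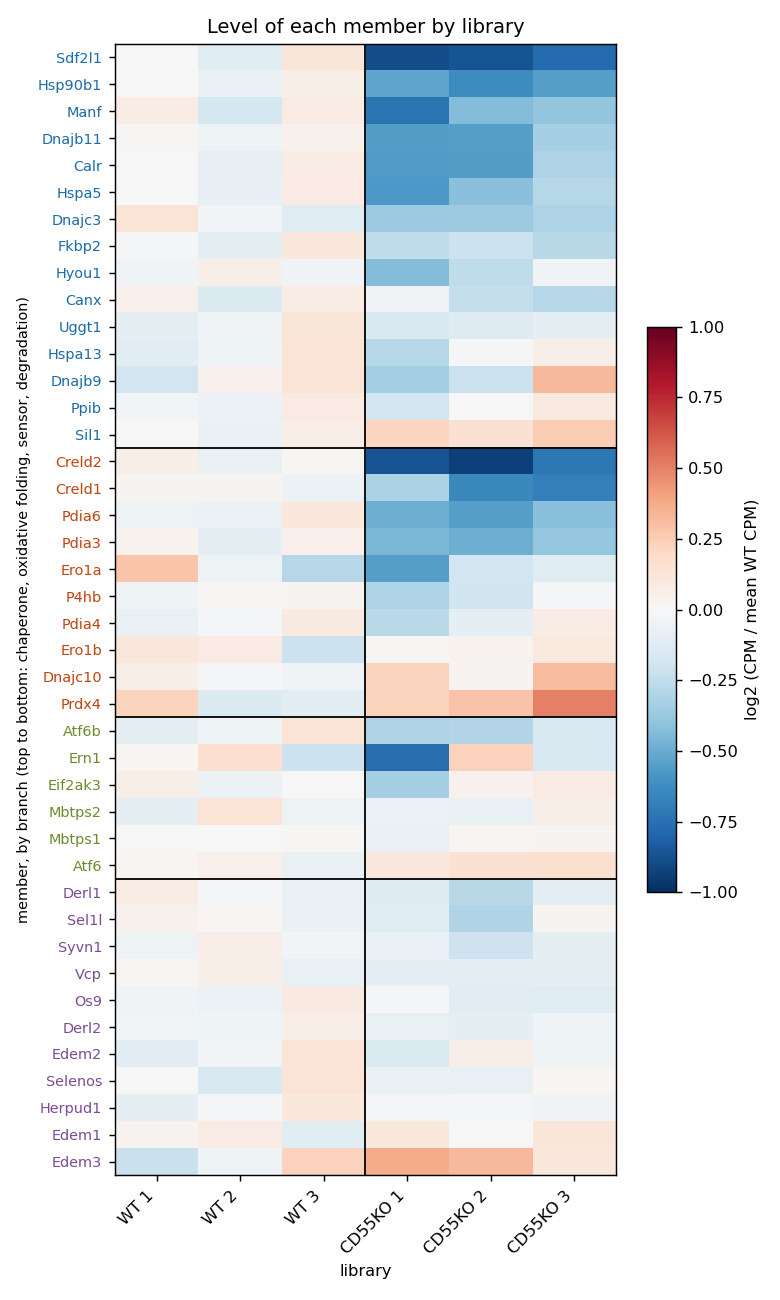
Log2 of each library's CPM over the mean WT CPM (colour scale from -1 to 1) for the 42 members (rows, ordered by branch and fold change) in the 6 libraries (columns). The 3 CD55KO columns are blue for the 8 genes past the threshold and for Hspa5, Dnajc3 and Creld1, and near white for most degradation genes.

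Over the 8 genes that fell, WT replicate 2 was the lowest WT library for 8 of 8 and CD55KO replicate 3 the highest CD55KO library for 7 of 8. CD55KO replicates 1 and 2 were each the lowest CD55KO library for 4. Summed over the 8 genes, the level was 1741, 1711 and 1869 CPM in CD55KO replicates 1 to 3 and 2525, 2371 and 2632 CPM in WT replicates 1 to 3. The 8 genes were picked by the test on these same libraries, so the separation of their sums is no further evidence. The 34 members that did not pass summed to 4732.5 to 5355.9 CPM in CD55KO and 5505.2 to 5866.5 CPM in WT. Those sums did not overlap either.

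Markers of other cell states were measured beside these genes, and their part in the results was not tested. Fewer cells of a type and less RNA per cell cannot be told apart in such bulk samples. Of 12 plasma cell markers 9 were tested, none passed by edgeR (2 at an unadjusted p under 0.05), DESeq2 or limma-voom, and 5 had negative values. Their sums overlapped, at 628 to 693 CPM in CD55KO libraries and 608 to 646 CPM in WT libraries, most of it Tnfrsf13b, which MZ B cells also express. Tnfrsf17, a defining marker, had 0 counts in all CD55KO libraries and 4, 1 and 0 counts in WT replicates 1 to 3. It did not pass the filter on low counts and was not tested. Jchain, the joining chain of secreted IgM, had 2.64, 9.26 and 9.88 CPM in CD55KO libraries and 32.4, 10.9 and 16.4 CPM in WT libraries, and Sdc1 had 1.76, 0.607 and 0.525 CPM against 2.62, 2.62 and 1.21 CPM. Prdm1, a transcription factor of plasma cells with the smallest p of the list, had 2.38, 3.44 and 2.45 CPM against 4.91, 4.98 and 4.16 CPM, without overlap (log2 fold change -0.76, SE 0.23, adjusted p = 0.25 by edgeR). Jchain, Sdc1, Slpi and Eaf2 had negative log2 fold changes of -1.44, -1.15, -1.04 and -0.29. Irf4, Slamf7, Fndc3b and Tnfrsf13b had positive log2 fold changes of 0.10, 0.24, 0.98 and 0.11. The median of the 9 tested was -0.29. Besides Prdm1, libraries did not overlap for Jchain, lower in CD55KO, and for Tnfrsf13b, higher in CD55KO.

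Of 12 germinal centre markers, all tested, 1 fell and 10 had negative values (median log2 fold change -0.66). An unadjusted p under 0.05 by edgeR was found for 3 of them, all lower. For 4 of them all CD55KO libraries lay under all WT libraries. Their sums overlapped, at 101 to 117 CPM in CD55KO libraries and 110 to 169 CPM in WT libraries. The gene that fell, Gcsam, passed in 0 of the 6 fits that each lacked a library (adjusted p from 0.059 to 0.16 by edgeR), while DESeq2 called Gcsam and Nuggc and limma-voom called none. The 10 proliferation markers summed to 229 to 262 CPM in CD55KO libraries and 256 to 406 CPM in WT libraries, where WT replicate 1 was the highest. All 10 had negative values (median log2 fold change -0.47), and for 3 the libraries did not overlap, with CD55KO lower. Of all tested genes, 49.6% had negative values and 6.84% had all CD55KO libraries under all WT libraries. An unadjusted p under 0.05 by edgeR was found for 8.6% of all tested genes, the share to set beside each list of markers. None of the 10 passed by edgeR (4 at an unadjusted p under 0.05), DESeq2 or limma-voom. Without WT replicate 1, Sdf2l1, Creld2, Hsp90b1, Dnajb11 and Pdia6 passed, with adjusted p from 0.00024 to 0.036 by edgeR, and Calr (0.072), Pdia3 (0.089) and Manf (0.12) did not. Markers of MZ B cells (10 tested, 4 negative, 2 at an unadjusted p under 0.05), follicular B cells (7 tested, 2 negative, 1 under 0.05) and B-1 cells (7 tested, 2 negative, 3 under 0.05) gave no call by edgeR or limma-voom. DESeq2 called Ighd among the follicular and Cd300lf and S100a6 among the B-1 markers. Neutrophil markers did not pass the filter on low counts, with sums of at most 0.639 CPM. Macrophage markers summed to 33.3 to 40.4 CPM in CD55KO libraries and 24.0 to 29.5 CPM in WT libraries, and T cell markers to 41.5 to 48.9 and 39.3 to 44.3 CPM. Lck made up nearly all of the T cell sum, at 40.2 to 47.7 CPM in CD55KO and 38.7 to 43.4 CPM in WT, with Cd3e and Cd3g at 0.0639 CPM or less in every library. No marker of these 2 types or of erythroid cells passed by edgeR or limma-voom (2 macrophage markers and no others at an unadjusted p under 0.05 by edgeR), and DESeq2 called Spic among the macrophage markers.

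Sdf2l1, Creld2 and Hsp90b1 passed whichever library was left out, with adjusted p up to 0.00099, 0.0018 and 0.041 by edgeR, as did Xbp1 (up to 0.037). Dnajb11 and Pdia6 passed in 4 of the 6 fits, Manf in 2, and Pdia3 and Calr in 1 each. The number of members that fell was 3 without CD55KO replicate 2 or without WT replicate 3, 5 without WT replicate 1 and 5 in a non-robust fit of all libraries, against 8 in the main test. Manf was not called by limma-voom, and DESeq2 called 11 members lower.

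**Figure D5:**
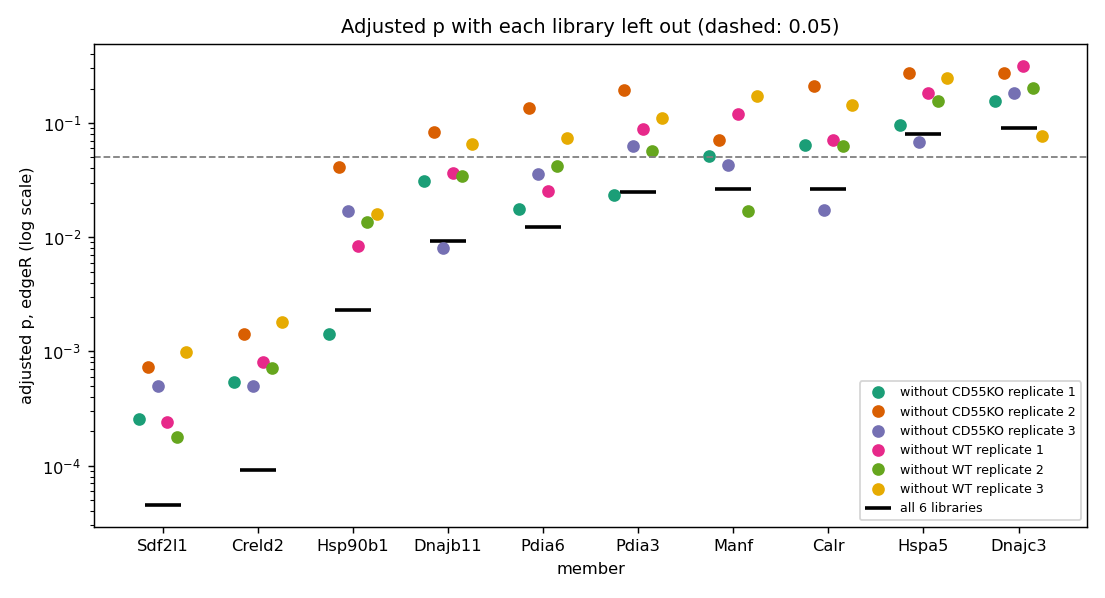
Adjusted p by edgeR (vertical axis, log scale) for the 8 genes past the threshold and for Hspa5 and Dnajc3, with all 6 libraries (black bars) and with each library left out (coloured points). Sdf2l1, Creld2 and Hsp90b1 stay under the dashed line at 0.05 in all 6 fits, and Hspa5 and Dnajc3 stay above it.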

How the data were processed

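Bulk RNA was sequenced from 3 CD55KO and 3 WT libraries, with the SMARTer Ultra Low kit, per the labels' protocols. The authors deposited estimated counts for each gene, with no depth scaling. DRAGEN, edgeR and limma are named in the submitters' processing notes, with no version or role. Their genome build and gene annotation were not given in the sources used here. Repeated rows (287 of 55774) held identical values and were removed, and counts were rounded. No library was a duplicate of another of its genotype (chi-square of 14.3 to 36.6 for each degree of freedom). Positions, exon lengths and overlaps came from GENCODE M21 (GRCm38) by gene ID.

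Genes were kept by filterByExpr (minimum count 10, minimum total 15), which left 13794, and tested with edgeR 4.0.16 in R 4.3.3 (TMM, robust quasi-likelihood F-test, genotype alone), with Benjamini-Hochberg adjustment over all tested genes and a threshold of 0.05. Log2 fold changes are CD55KO against WT, SE is the fold change over the root of F, and group values are means with the SD of 3 libraries. A count is called whole within 0.005. Alternatives were DESeq2 1.42.0, limma-voom (limma 3.58.1), other scalings and filters, a non-robust fit, immunoglobulin genes left out, the replicate number as a block and leaving out each library. The test was tested on simulated data.

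The members, branches, lists and naming rule were chosen with earlier results of these data known. Values in each library are given for members past the threshold, for the 2 further members of each branch with the smallest p (3 where none passed) and for the most abundant per exon length. Sil1 and Herpud1 are also given by library, chosen after their values were seen. From the other pathway lists those past the threshold and the 2 further genes with the smallest p are named.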

Additional observations from a re-analysis of the deposited data

How the results depend on the processing

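Of the 8 members that fell, 3 (Sdf2l1, Creld2 and Hsp90b1) passed under all 15 alternatives, and 31 of the 34 others passed under none. Hspa5, Dnajc3 and Creld1 passed under some. All genes called numbered 55, against 138 by DESeq2 (60 of them higher) and 232 without a count filter (104 higher, of 23738 tested). Without robust estimates 5 members and 3 chaperones were called instead of 8 and 5. Leaving out 1 library gave 3 to 7 members, 2 to 5 chaperones and 1 to 3 genes of oxidative folding, with 0 sensors and 0 degradation genes each time. The direction of 11 members, none called, turned when a library was left out: log2 fold changes ran from -0.28 to 0.080 for Dnajb9, -0.10 to 0.026 for Edem2, -0.14 to 0.063 for Eif2ak3, -0.42 to 0.048 for Ern1, -0.048 to 0.11 for Ero1b, -0.063 to 0.035 for Herpud1, -0.15 to 0.026 for Hspa13, -0.029 to 0.028 for Mbtps1, -0.071 to 0.053 for Mbtps2, -0.092 to 0.050 for Ppib and -0.11 to 0.035 for Selenos. The cause of these shifts was not tested. Correlations of deviations from the genotype means were 0.07, -0.11 and 0.16 between libraries that share the numbers 1 to 3. With 3 libraries for each genotype they cannot decide whether the numbers mark pairs. With the replicate block 9 members were called, 6 of them chaperones, 3 of oxidative folding, 0 sensors and 0 degradation genes, with 1 other pathway gene and 64 genes in all, and Hspa5 was the member gained. Not every library correlated best with its own number. Ern1 had few counts, 24 to 52 in each library.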

Other observations

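Outside the 42 members, an ERSE lay in the promoter windows of 28 genes, of which 8 were tested. None of the 8 passed, 0 had an unadjusted p under 0.05, and 4 were negative (median log2 fold change -0.0030). Those with a known role in the ER were Derl3, a relative of Derl1 (log2 fold change -0.23, SE 0.21, adjusted p = 0.84 by edgeR), and Alg12, a mannosyltransferase of glycan assembly (0.01, SE 0.13, adjusted p = 0.995 by edgeR). With an ERSE-II, Nucb1, a calcium-binding protein of the Golgi that restrains ATF6 cleavage, had -0.16, SE 0.08 (adjusted p = 0.60 by edgeR), and Krtcap2, a subunit of the oligosaccharyltransferase, had -0.06, SE 0.07 (adjusted p = 0.90). The choice of these 4 was made with their values known.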
